A study of Mus musculus with 4 samples.

Results

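The 34 ribosome biogenesis genes described here encode nucleolar proteins that transcribe, process and modify ribosomal RNA (rRNA) and assemble it into ribosomal subunits. They were taken by name for their function, not by a measured threshold, but with earlier results of these data known. All 34 were found among the 45232 gene rows of the count files. The RNA came from LSK cells positive for GFP, which lack lineage markers, carry Kit and Sca-1 on their surface and include mouse haematopoietic stem cells and early progenitors. Sorting took place 3 months after long-term haematopoietic stem cells, also GFP-positive, had been transplanted. The donor cells carried either the control (Scr) or a knockdown, labelled miR-99 KD and called KD below. The knockdown is aimed at the microRNA miR-99, and each group has 2 libraries. The labels give no strain, age or sex of donors or hosts, and both groups are transplanted. The design implies 1 comparison, that of the RNA levels of KD with those of Scr.

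A ribosome begins in the nucleolus, where RNA polymerase I (Pol I) transcribes a long precursor rRNA. Small nucleolar ribonucleoproteins (snoRNPs) modify this precursor at chosen bases, and a large particle called the small subunit processome folds and cuts it. A separate line of assembly factors builds the large subunit. In blood-forming tissue, stem cells are known for a low rate of protein synthesis compared with dividing progenitors, and Myc is a known activator of many genes of this pathway.

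Because the agent is aimed at miR-99, the 3 mouse microRNAs of this family are shown first, from RefSeq on GRCm38.p6, with the seed (bases 2 to 8) in capitals. The labels do not say which of them were lowered, and RNA libraries of this kind do not measure mature microRNAs, which left the knockdown unchecked. All 3 share one seed.
miR-99a-5p: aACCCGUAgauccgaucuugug
miR-99b-5p: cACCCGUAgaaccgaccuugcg
miR-100-5p: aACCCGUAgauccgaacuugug
The match to the seed, TACGGGT, was searched on the transcript strand of annotated 3′ untranslated regions of at least 50 bases. It was found in 0 of the 33 ribosome biogenesis genes that have such a region and in 190 of 12815 tested genes, or 1.48%. At that share, a list of this length holds few matches in any case.

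Gene counts per library ran from 27295197 to 32350590. Below, CPM is the read count per library total with totals adjusted by TMM, a scaling that lines up the bulk of genes between libraries. The sort markers stood lower in KD. Kit stood at 1149 and 1280 CPM in Scr and at 670.3 and 774 in KD, and Ly6a, which encodes Sca-1, at only 46.5 and 22.8 against 12.4 and 22.3. The summed CPM of 10 sort and stem cell markers was 4338 to 4676 in Scr and 2094 to 2278 in KD. That of 10 erythroid markers was 6115 to 8264 in Scr and 9822 to 10943 in KD. The 12 neutrophil markers summed to 29197 CPM in KD 1 against 5310 to 8344 in the other libraries, and the 10 B cell markers to 316 against 41.7 to 94.2. The 9 macrophage markers also peaked in KD 1, at 4120 CPM against 641 to 1680 elsewhere. Of 8 T and NK cell markers, the 3 that passed the filter on low counts summed to 196 to 209 CPM in Scr and 115 to 150 in KD. Of 6 markers of mast cells and basophils, 5 passed and summed to 268 to 333 and 302 to 350. No gene of these lists was at 0 in all libraries. The part of these markers in the results below was not tested, and in bulk RNA fewer cells of a type and less RNA per cell cannot be told apart.

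All 34 genes were well above the filter on low counts, with 844 to 61477 counts per gene and library. Their share of TMM-scaled counts was 0.761% in Scr 1, 0.789% in Scr 2, 0.854% in KD 1 and 1.01% in KD 2. Ncl, which encodes nucleolin, a major nucleolar protein that binds precursor rRNA, made up 20.0% to 23.0% of that sum in each library. Ncl ranked between 11 and 24 among all tested genes by CPM, and Nle1 ranked lowest of the 34 at 5658 to 7033.

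Levels between genes were compared per length, as TPM (the count per base of transcript, as a share of the library), using the union of annotated exons as the length. On this scale Ncl stood highest, with a mean over libraries of 591 TPM, next to Npm1 at 556, Nop56 at 361 and Nolc1 at 347. Ncl stood at 521 to 724 TPM and Npm1 at 436 to 777, so these neighbours in the order overlapped. The lowest were Polr1a at 26.0 TPM, Utp20 at 33.6, Nle1 at 35.4 and Fbl at 36.4. Wdr12 at 47.6 TPM and Nat10 at 77.1 followed. Rare long isoforms lengthen the exon union and lower such values, so a gap between genes is approximate.

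**Figure D1:**
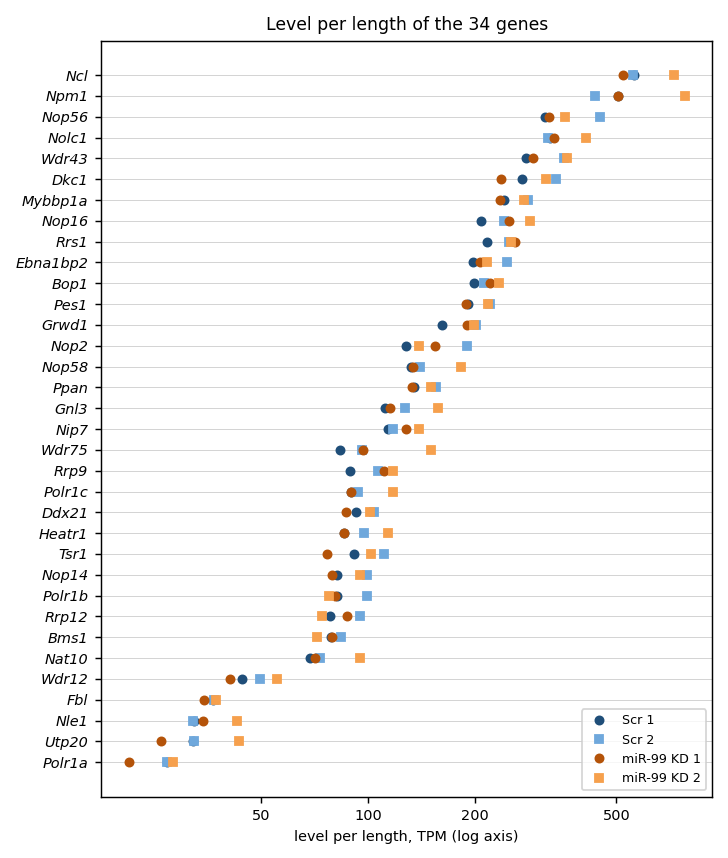
Level per length of the 34 genes in TPM (log axis), one point per library, ordered by the mean over the 4 libraries. Ncl and Npm1 lead, with means of 591 and 556 TPM, and Polr1a is lowest, with a mean of 26.0 TPM.

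The genes stood a little higher in KD than in Scr, by a median log2 difference of 0.25 over the 34, against 0.02 over the 15320 genes tested. In 32 of the 34 the log2 difference was above 0, against 51.4% of all genes tested. With libraries scaled by their totals it was above 0 in 26 of the 34, against 6740 of all 15320. With TMM, the KD pair lay wholly above the Scr pair in 21 of the 34, in 0 below, and 13 overlapped. Over all genes tested 24.5% lay above and 26.0% below. Single differences were small: the largest was a log2 difference of 0.63, in Wdr75, and 2 genes exceeded 1.5-fold. No gene passed the test. The quasi-likelihood test of edgeR with Benjamini-Hochberg adjustment called 0 of the 34 and 0 of all genes tested, or 0%, at an adjusted p of 0.05, and the adjusted p of the 34 ran from 0.260 to 0.990. At an unadjusted p under 0.05 edgeR counted 7 higher and 0 lower, against 5.97% higher and 9.63% lower over all genes. DESeq2 called 0 of the 34 at an adjusted p of 0.05, against 1.68% higher and 4.16% lower over all genes, and limma-voom called 0 of the 34.

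The size of this difference depended on single libraries and on the scaling. The median was 0.15 without Scr 1, 0.15 without KD 2, 0.27 without Scr 2 and 0.29 without KD 1. The log2 difference was above 0 in 27 of the 34 without Scr 1, against 8273 of 15975 genes tested there. Without Scr 2 it was above 0 in 33, against 8183 of 16541. Without KD 1 it was so in 30, against 7793 of 16483, and without KD 2 in 29, against 7925 of 16430. The count of genes at an unadjusted p under 0.05 also changed with the library left out, both for the 34 and for all genes. Without KD 1, edgeR called 3 genes at an adjusted p of 0.05, namely Ncl, Npm1 and Wdr75, and over all 16483 genes tested there it called 1.83% higher and 4.32% lower. That fit takes its spread from the Scr pair alone. With libraries scaled by their totals, 14 genes lay above and 0 below, against 2765 and 4888 of all 15320 genes, and the median was 0.16. Over all genes, those at an unadjusted p under 0.05 then numbered 503 higher and 1898 lower, in place of 915 and 1475. On the TPM scale 8 lay above and 1, Polr1b, below, against 11.2% and 36.8% of all genes. The median was 0.06, and 19 of the 34 were above 0, against 5311 of 15257 genes. That scale moved the median of all genes to -0.17. Relative to the median of all genes, the median of the 34 was 0.23 with TMM, library totals and TPM alike, since a shift common to all genes cancels. This relative median was 0.13 without Scr 1, 0.17 without KD 2, 0.28 without Scr 2 and 0.34 without KD 1. It was 0.33 with no filter on low counts and 0.19 with a filter at 10 CPM in 2 libraries.

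Within each group the libraries also differed. Of the 34 genes, 25 were highest in KD 2, 6 in KD 1, 3 in Scr 2 and 0 in Scr 1. The lowest library was Scr 1 for 19, Scr 2 for 10, KD 1 for 4 and KD 2 for 1. The median log2 step from the Scr mean was 0.15 to KD 1 and 0.30 to KD 2, and the step from KD 1 to KD 2 had a median of 0.15. The neutrophil and B cell markers peaked in KD 1, and 26 of the 34 genes were higher in KD 2 than in KD 1. A link between these orders was not tested.

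**Figure D2:**
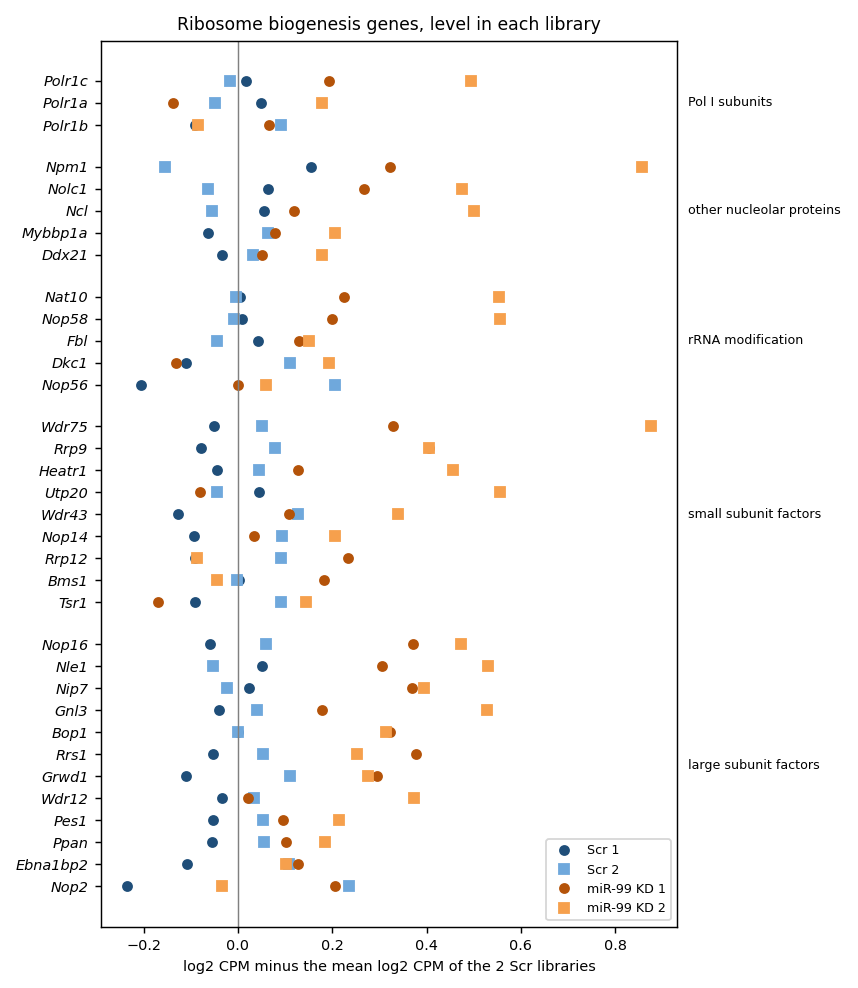
Level of each gene in each library, as log2 CPM minus the mean log2 CPM of the 2 Scr libraries, grouped by role. The KD 2 library is the highest for 25 of the 34 genes, and KD 1 lies between it and the Scr libraries for many.

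Among the Pol I subunits, the catalytic pair had log2 differences near 0 and a shared subunit stood higher. Polr1c, a subunit that Pol I shares with RNA polymerase III, stood at 60.7 and 59.3 CPM in Scr and at 68.5 and 84.4 in KD. Its groups did not overlap, and its log2 difference was 0.35 ± 0.17 (SE; n = 2 in each group). Polr1a, the largest catalytic subunit, stood at 96.2 and 90.0 CPM in Scr and at 84.5 and 105 in KD. The KD libraries thus lay on either side of the Scr pair, with a log2 difference of 0.03 ± 0.16 (SE). Polr1b, the second catalytic subunit, stood at 141 and 160.25 CPM in Scr and at 157 and 142 in KD. Its log2 difference was -0.01 ± 0.14 (SE), and both groups covered the same range. The TPM ratio of Polr1c to Polr1b, which does not depend on library scaling, was 1.10 and 0.942 in Scr and 1.11 and 1.52 in KD.

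The 5 genes of multifunctional nucleolar proteins, Ncl, Npm1, Nolc1, Mybbp1a and Ddx21, all had both KD libraries above both Scr libraries on the TMM scale. Over all genes tested, 24.5% had this order. Npm1, nucleophosmin, a histone and ribosome chaperone, stood at 400.1 and 323 CPM in Scr and at 449.6 and 650.5 in KD. The groups did not overlap, but KD 1 lay nearer to Scr 1 than to KD 2. Its log2 difference was 0.61 ± 0.23 (SE; n = 2 in each group), with an edgeR adjusted p of 0.308. Npm1 is known to have many processed copies in the genome, and reads that align to several places are not counted, so its level is uncertain. Ncl stood at 1699.7 and 1576 CPM in Scr and at 1778 and 2315 in KD. Here KD 1 was close to Scr 1, and the log2 difference was 0.32 ± 0.17 (SE). Nolc1, a chaperone of snoRNPs, stood at 385 and 352.5 CPM in Scr and at 443 and 512 in KD. Both KD libraries were clear of the Scr pair, with a log2 difference of 0.37 ± 0.14 (SE) and an edgeR adjusted p of 0.316. The log2 difference was 0.14 for Mybbp1a, which binds Pol I and rRNA processing complexes, and 0.12 for Ddx21, an RNA helicase that acts in rRNA transcription and processing.

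Of the 5 rRNA modification genes, 3 had both KD libraries above both Scr libraries and 2 overlapped. Over all genes tested, 24.5% lay above and 26.0% below. All 5 log2 differences were above 0 with TMM, with Nop56 and Dkc1 below 0 under library totals. Box C/D snoRNPs, which methylate rRNA, hold the methyltransferase Fbl (fibrillarin) and the scaffold proteins Nop56 and Nop58. Nop58 stood at 424 and 419 CPM in Scr and at 484 and 619 in KD. Its Scr libraries were nearly equal and its KD libraries were not, with a log2 difference of 0.39 ± 0.17 (SE; n = 2 in each group). Nop56 stood at 383 and 509.6 CPM in Scr and at 442 and 461 in KD. Both KD values fell between the Scr values, with a log2 difference of 0.02 ± 0.18 (SE). Fbl stood at 45.9 and 43.2 CPM in Scr and at 48.7 and 49.5 in KD. The groups did not overlap, and the log2 difference was 0.14 ± 0.15 (SE). The TPM ratio of Nop56 to Nop58 was 2.37 and 3.20 in Scr and 2.40 and 1.95 in KD; its groups overlapped. That of Fbl to Nop58 was 0.277 and 0.264 in Scr and 0.258 and 0.204 in KD, so its groups were narrowly apart, and that of Fbl to Nop56 overlapped. Nat10, which acetylates rRNA, stood at 147 and 146 CPM in Scr and at 171 and 215 in KD. Its groups were apart, with a log2 difference of 0.40 ± 0.16 (SE) and an edgeR adjusted p of 0.326. The log2 difference of Dkc1, the pseudouridine synthase of box H/ACA snoRNPs, was 0.04, and its groups overlapped.

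The 9 small subunit factors had a median log2 difference of 0.22, with 3 genes above and 6 overlapping. Over all genes tested, 24.5% lay above and 26.0% below. Wdr75, a processome protein needed for Pol I transcription as well, stood at 122 and 131 CPM in Scr and at 159 and 232 in KD. The groups were apart and KD 2 was far the highest, with a log2 difference of 0.63 ± 0.21 (SE; n = 2 in each group) and an edgeR adjusted p of 0.283. Its log2 difference was 0.33 without KD 2 and 0.87 without KD 1. Rrp9, a protein of the U3 snoRNP that guides the early cuts, stood at 77.8 and 86.6 CPM in Scr and at 108.6 and 108.7 in KD. The KD libraries were nearly equal and both above Scr, with a log2 difference of 0.40 ± 0.13 (SE) and an edgeR adjusted p of 0.281. Heatr1, a processome protein that also supports Pol I transcription, stood at 199 and 211 CPM in Scr and at 224 and 281 in KD. Its KD 1 value was close to Scr 2, with a log2 difference of 0.30 ± 0.16 (SE). Wdr43, which belongs to the same early processome group, stood at 395 and 471 CPM in Scr and at 465 and 546 in KD. Scr 2 lay slightly above KD 1, so its groups overlapped. The other 5 were Utp20, Nop14, Rrp12, the GTPase Bms1 and Tsr1, which acts in late maturation. They all overlapped, and their log2 differences ran from -0.01 in Tsr1 to 0.27 in Utp20.

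Among the 12 large subunit factors, all log2 differences were above 0 (Nop2 below 0 with library totals). They ran from 0.07 in Nop2, an rRNA methyltransferase, to 0.42 in Nop16, with a median of 0.30. Of the 12, 9 lay above and 3 overlapped, against 24.5% above over all genes tested. Nop16, a nucleolar protein of early large subunit assembly, stood at 114 and 124 CPM in Scr and at 154 and 165 in KD. The gap between the groups was wider than that within either, with a log2 difference of 0.42 ± 0.13 (SE; n = 2 in each group). Nop16 had the lowest edgeR adjusted p of the 34, at 0.260. Nip7, which binds precursor rRNA and large subunit particles, stood at 106 and 102 CPM in Scr and at 134 and 137 in KD. Again each pair was tight and the pairs were apart, with a log2 difference of 0.38 ± 0.12 (SE) and an edgeR adjusted p of 0.271. Bop1 stood at 174.4 and 174.3 CPM in Scr and at 218 and 217 in KD. Each pair was nearly equal within itself, with a log2 difference of 0.32 ± 0.12 (SE) and an edgeR adjusted p of 0.314. On the TPM scale Nop16 stood at 209 and 242 in Scr and at 249 and 285 in KD, Nip7 at 114 and 118 against 128 and 139, and Bop1 at 199 and 212 against 220.2 and 234. These 3 genes had groups apart on that scale too, as had Nolc1, Wdr75, Rrp9, Nle1 and Rrs1.

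Bop1 works with Pes1 and Wdr12 in the PeBoW complex, which is needed to process the rRNA of the large subunit. The log2 difference of Pes1 was 0.15 with groups apart, and that of Wdr12 was 0.21 with groups that overlapped. The TPM ratio of Pes1 to Bop1 was 0.964 and 1.04 in Scr and 0.855 and 0.933 in KD, so the groups were narrowly apart. The log2 differences of the other large subunit genes were 0.42 for Nle1, 0.36 for Gnl3 (nucleostemin, a GTP-binding protein of stem and dividing cells), 0.32 for Rrs1, 0.28 for Grwd1, 0.14 for Ppan and 0.11 for Ebna1bp2. Of these, only Ebna1bp2 overlapped between the groups on the TMM scale.

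**Figure D3:**
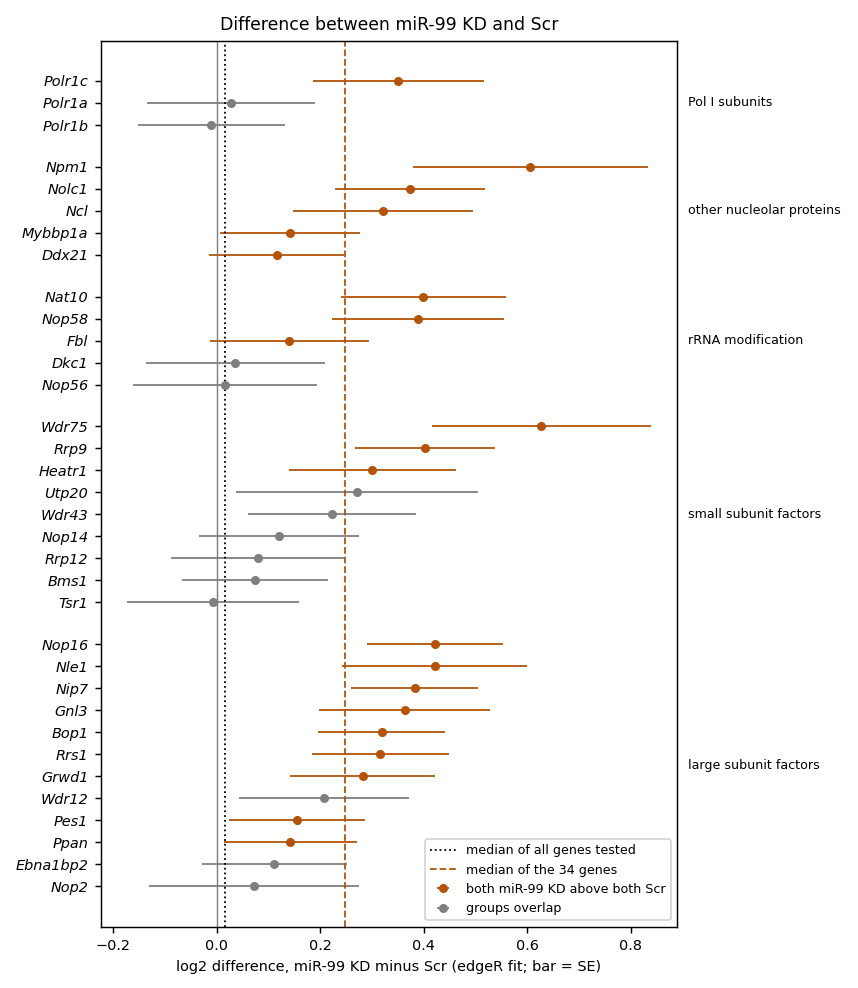
Log2 difference between KD and Scr for each gene from the edgeR fit, with its SE, grouped by role. The dashed line is the median of the 34 genes (0.25), the dotted line that of all genes tested (0.02), and no gene passed the adjusted threshold.

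Strand use in counting is not given in the sources used here. Exons of 15 of the 34 genes overlap an antisense gene in the GENCODE M21 annotation, and reads of such partners cannot be told apart without strand. In the 19 without such a partner, the median log2 difference was 0.32 and 13 lay above. In the 15 with one, it was 0.21 and 8 lay above. The share above over all genes tested was 24.5%. Some partners stood lower in KD. Spns2, opposite Mybbp1a, stood at 342 and 327 CPM in Scr and at 139 and 139 in KD. Its adjusted p was 0.191 by edgeR, which did not call it, and 1.3e-15 by DESeq2, which called it lower. Lgals8, opposite Heatr1, stood at 74.3 and 75.9 CPM against 57.0 and 47.4. Parp3, opposite Rrp9, stood at 17.8 and 14.2 CPM against 10.04 and 5.23. Mroh1, opposite Bop1, stood at 35.8 and 33.7 CPM against 31.6 and 24.6. Mpp1, opposite Dkc1, stood higher instead, at 131 and 111 CPM against 171 and 166.

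A second list, also chosen with earlier results of these data known, held 125 further genes of the same pathway. Of these, 111 had a log2 difference above 0 and 14 below. The median log2 difference of the list was 0.24. The KD pair lay wholly above the Scr pair in 75 and below in 4, against 24.5% and 26.0% of all genes. On the TPM scale 29 lay above and 13 below, against 11.2% and 36.8% of all genes, and the median was 0.057. By edgeR 0 passed at an adjusted p of 0.05. At an unadjusted p under 0.05 it counted 26 higher and 1 lower, against 5.97% and 9.63% of all genes. DESeq2 called 2 higher and 0 lower, against 1.68% and 4.16% of all genes, and limma-voom called 0. The count of 26 became 12 with the replicate number as a block, where 698 of all 15320 genes were higher at that p. With library totals it became 8, where 503 of all genes were. It also changed with the library left out. The median of the 125 was then 0.19 without Scr 1, 0.25 without Scr 2, 0.29 without KD 1 and 0.16 without KD 2. Without KD 1, edgeR called 8 of these genes higher, against 1.83% of all genes in that fit. By role, the genes above numbered 28 of 43 small subunit factors, 27 of 48 large subunit factors, 6 of 12 genes of Pol I and its factors, 6 of 9 snoRNP genes and 8 of 13 genes of the RNA exosome and related nucleases. The medians of these roles ran from 0.16 in the exosome list to 0.30 in the snoRNP list.

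Noc3l and Noc4l, nucleolar assembly factors of the large and the small subunit, were the genes that DESeq2 called. Noc3l stood at 45.4 and 42.5 CPM in Scr and at 64.2 and 79.6 in KD, a log2 difference of 0.71 ± 0.18 (SE; n = 2 in each group) and its adjusted p was 0.0175 by DESeq2 and 0.227 by edgeR. Noc4l stood at 157 and 164 CPM in Scr and at 215 and 242 in KD, and its adjusted p was 0.0255 by DESeq2 and 0.232 by edgeR. Both genes had groups well apart. Mphosph10, a processome protein bound to U3, stood at 103 and 117 CPM against 148 and 165. Mrto4, a large subunit factor, stood at 97.3 and 98.1 CPM against 131 and 133. On the lower side, Taf1b, a subunit of the factor that loads Pol I on rRNA genes, stood at 68.3 and 71.6 CPM in Scr and at 51.3 and 56.5 in KD. Its log2 difference was -0.38 ± 0.15 (SE), with an edgeR adjusted p of 0.320. Next came Shq1, an assembly factor of H/ACA snoRNPs, at 25.5 and 29.04 CPM against 21.0 and 23.1. The other lower genes by this order were Exosc2, a cap protein of the RNA exosome, with a log2 difference of -0.19, and Gnl3l, a relative of Gnl3, with one of -0.17.

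**Figure D4:**
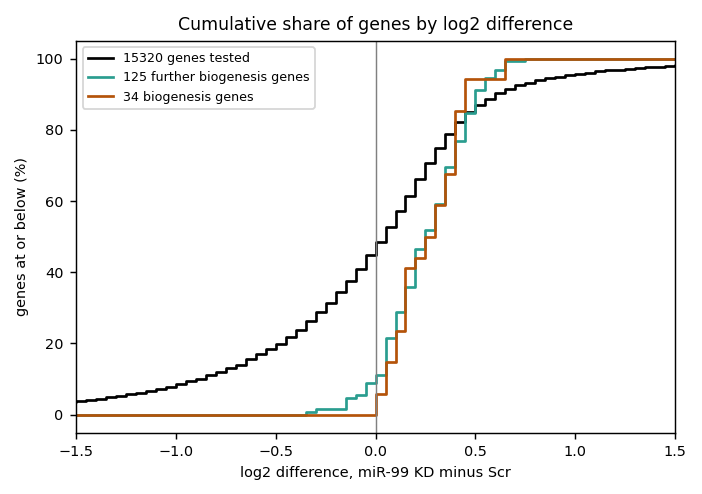
Cumulative percent of genes (vertical axis) with a log2 difference between KD and Scr at or below the value on the horizontal axis, for all 15320 genes tested, the 125 further biogenesis genes and the 34 genes. Most of both biogenesis curves lies to the right of 0, around medians of 0.24 and 0.25, and the curve of all genes spreads widely around its median of 0.02.

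Genes of the Myc network lay on both sides. At an adjusted p of 0.05 edgeR called 0 of the 10 that were tested and 0% of all genes. DESeq2 called 0 of them, against 1.68% higher and 4.16% lower over all genes. At an unadjusted p under 0.05 edgeR counted 2 higher and 2 lower, against 5.97% and 9.63% of all genes. Myc itself stood at 556 and 551 CPM in Scr and at 704 and 689 in KD. Its pairs were tight and apart, with a log2 difference of 0.33 ± 0.12 (SE; n = 2 in each group) and an edgeR adjusted p of 0.308. Mycn, its relative, lay the other way, at 67.0 and 73.9 CPM in Scr and at 40.1 and 53.1 in KD. Max, the partner that both need to bind DNA, stood at 78.0 and 64.7 CPM against 90.6 and 139, and Mnt, a repressor that competes for Max, at 13.8 and 12.6 CPM against 7.66 and 4.89. Mycl had 0 to 5 counts per library and was not tested.

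The letters CACGTG, the core E-box that Myc and Max can bind, were searched in RefSeq promoter windows of GRCm38.p6, from 250 bases before to 50 after each annotated start; the motif reads the same on both strands. Windows matched 29 of the 34 genes, and 8 of these, or 27.6%, held the motif, against 17.6% of the 108 further biogenesis genes with a window and 11.6% of 10703 tested genes. The genes were Mybbp1a, Wdr43, Utp20, Tsr1, Pes1, Nop2, Nle1 and Grwd1. Their large subunit members are shown, as the role with the most genes, in stretches of 30 bases with the motif in capitals.
Pes1: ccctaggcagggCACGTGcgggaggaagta
Nop2: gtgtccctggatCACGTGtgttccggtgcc
Nle1: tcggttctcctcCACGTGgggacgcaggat
Grwd1: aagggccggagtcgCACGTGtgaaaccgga
These lie at chr11:3963965-3963994 (plus strand), chr6:125131811-125131840 (plus), chr11:82908355-82908384 (minus) and chr7:45830740-45830769 (minus). The motif of Nop2 begins 60 bases before the annotated start, and those of the other 3 lie after it. The 8 genes with the motif had a median log2 difference of 0.19, with 4 above, and the 21 without it one of 0.30, with 13 above. Over all genes tested 24.5% lay above. A match is a description of the sequence and shows no binding.

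Some of the genes hold others within their bounds. In GENCODE M21, 8 of the 34 (23.5%) hold at least 1 small nucleolar RNA gene on their own strand within their bounds, against 1.19% of 21501 protein-coding genes in the files. These are Ncl, Nop56, Nop58, Dkc1, Wdr43, Tsr1, Ppan and Gnl3, with 23 such genes in all, among them Snord82 in Ncl, Snord57 and Snord110 in Nop56, Snord11 and Snord70 in Nop58, and Snord19 and Snord69 in Gnl3. Small nucleolar RNAs guide snoRNPs to the bases of rRNA that they modify, so these host genes encode the proteins of the pathway and carry its guide RNAs in the same transcript.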

How the data were processed

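Total RNA of sorted cells was extracted from Trizol LS lysates and libraries were made with SMARTer amplification, per the labels' protocols. The authors deposited 1 file per library with unnormalised read counts of Ensembl genes. The submitters' processing notes name STAR, Picard, HTSeq and DESeq2 with the mouse build mm9; these name no version, and the role of each tool and the annotation release were not given in the sources used here. Rows naming no gene stayed out; reads with no feature made up 8.31% to 13.8% and reads with several alignments 18.0% to 21.9% of reads. Without molecular identifiers, PCR copies may be counted. Symbols matched 44585 of 45232 rows (through GENCODE M21, a GRCm38 annotation; the counted genes are therefore given without coordinates).

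Groups were compared in edgeR 4.0.16 (R 4.3.3) by quasi-likelihood F tests. The filterByExpr step kept 15320 genes, libraries were scaled by TMM, and p-values were adjusted over all of these genes by Benjamini-Hochberg. Standard errors come from that fit. It was tested on simulated data, where it missed most 2-fold changes and its share of false calls was above the threshold of 0.05. A gene that was not called may thus still differ. Alternatives used DESeq2 1.42.0, limma 3.58.1 (voom), other scalings and filters, a replicate block and each library left out; the TPM scale was added after seeing the data. With 2 libraries per group, p-values set a difference against the spread between these libraries only. That spread was estimated with the help of all genes tested.

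The genes, their roles and the other lists were chosen with earlier results of these data known. Genes given with every library are the 3 with the smallest p and the one highest in TPM of each role, any with an unadjusted p under 0.05, and up to 4 further pathway genes in each direction. The factors of the Myc network and the antisense partners were named besides. Of 127 further pathway genes listed, 125 matched a row.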

Additional observations from a re-analysis of the deposited data

How the results depend on the processing

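The counts of genes called were the least stable values, and the cause of the changes was not tested. Over all genes edgeR called 0, against 896 with DESeq2, 1064 unfiltered and 0 to 1013 in the fits that left out 1 library. Of the 34 genes it called 0, against 1 unfiltered and 0 to 3 with a library left out; of the 125 further genes 0, against 2 with DESeq2, 1 unfiltered and 0 to 8 with a library left out. The 7 genes higher at an unadjusted p under 0.05 were 2 with library totals, 2 with the replicate number as a block and 0 to 14 without each library, and the 21 genes above were 8 on the TPM scale. Over all 15320 genes, those higher at that p numbered 915 in the main fit, 503 with library totals and 698 with the block. The count over all genes also changed with the library left out, so the range of 0 to 14 alone does not set the 34 apart. The median of 0.25 was 0.16 with library totals, 0.055 on the TPM scale and 0.15 to 0.29 without each library. Of 408 values of the 34 single genes under the alternatives other than the TPM scale, 28 changed sign, in 10 genes. On the TPM scale, not among these values, 19 of the 34 genes were above 0, against 32 in the main fit. With library totals Polr1a was -0.059, Nop56 -0.070, Dkc1 -0.050, Bms1 -0.014, Rrp12 -0.0080 and Nop2 -0.015. With the filter at 10 CPM Polr1a was -0.0031 and Nop56 -0.011, and unfiltered Nop56 was -0.0092. Without mitochondrial, ribosomal protein and globin genes Polr1b was 0.0040 and Tsr1 0.0049. With a library left out, Polr1a ran from -0.14 to 0.18, Polr1b from -0.13 to 0.07, Nop56 from -0.20 to 0.22, Dkc1 from -0.13 to 0.19, Utp20 from -0.079 to 0.55, Bms1 from -0.046 to 0.19, Tsr1 from -0.17 to 0.14, Rrp12 from -0.091 to 0.23, Nop2 from -0.17 to 0.31 and Ebna1bp2 from -0.020 to 0.21. Deviations from the group means correlated at 0.057 between libraries of one number, with 2 such pairs, so the pairing was treated as a number only; with the block edgeR called 0 genes.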

Other observations

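Lines pasted below the gene rows carry other library names than the titles. The total of Scr 1 stands there under the name Scr-2, that of miR-99 KD 1 under Zip99a-2 and that of miR-99 KD 2 under Zip99a-1. A gene total of 29793890 under the name Scr-1 matches none of the 4 libraries used here, whose Scr 2 has 28422748. The titles were followed throughout.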
